A study of Mus musculus with 4 samples.

Results

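The accessible chromatin described here is that of the 3 *Runx* genes of the mouse, *Runx1*, *Runx2* and *Runx3*, and of *Cbfb*. Its regions were the 172 of 255864 regions of a merged ATAC-seq count table that overlapped one of the 4 genes or the 25 kb on either side of it, by the GENCODE M21 annotation of the GRCm38 mouse genome. *Runx2* had 73 regions, *Runx1* 56, *Runx3* 25 and *Cbfb* 18. In ATAC-seq a transposase cuts open chromatin and inserts sequencing adapters there, so that the read count of a region measures how accessible it was. The study asked how chromatin changes in bone-forming cells that lack the TET enzymes, and compared primary osteoblasts of wild-type mice (WT) with those of Tet1/2/3 triple conditional knockout mice (TCKO). Both groups were C57BL/6 and 3 days old. TCKO animals carried the floxed alleles Tet1fl/fl, Tet2fl/fl and Tet3fl/fl together with Prx1-Cre, a recombinase that is active in limb and part of the skull mesenchyme and its progeny, so cells of other origin in the same culture keep their *Tet* genes. Osteoblasts came from calvarial bone by the study's methods, and whether the WT animals carried the transgene or the floxed alleles was not given in the sources used here.

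Each genotype had 2 labelled samples. A protocol note speaks of 3 repeats, a number that the study's methods give for the RNA-seq. The table holds 1 merged column per genotype. No spread between animals could therefore be computed and no test was possible. Values below are read counts in WT and TCKO and their log2 ratio, TCKO over WT, after TCKO counts were scaled to the WT total and 1 count was added to each. Intervals in brackets are 95% Wilson counting intervals. They cover counting error only and say nothing of the spread between cultures or animals. A depth solved from the peak lists instead of the total count shifted every ratio by -0.61, so that most ratios given below as above 0 lie below 0 on that scale.

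RUNX proteins are transcription factors that bind DNA through the Runt domain, and core binding factor beta, the product of *Cbfb*, is the partner that does not touch DNA itself but makes that binding firmer. RUNX2 is required for the osteoblast lineage, RUNX1 is best known from blood stem cells, and RUNX3 from T cells and sensory neurons. Each *Runx* gene is read from a distal and a proximal promoter, which give proteins with different amino-terminal ends. TET enzymes oxidise methylated cytosine at CpG sites, the first step of active DNA demethylation.

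The distal promoters of the 3 *Runx* genes share a pair of Runt sites, and these are shown because accessibility at the 3 promoters differed. All 3 hold 2 copies of ACCACA separated by 2 bases on the gene's own strand, within 1 kb of the first coding start. No other promoter of the 4 genes had such a pair within 1 kb of a start. The pair is in capitals in the 30 bases below, read from the GRCm38 genome.
Runx1 distal promoter, chr16:92826025-92826054, - strand: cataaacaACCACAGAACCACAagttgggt
Runx2 distal promoter, chr17:44814583-44814612, - strand: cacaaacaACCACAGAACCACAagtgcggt
Runx3 distal promoter, chr4:135120503-135120532, + strand: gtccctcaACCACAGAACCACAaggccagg

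In *Runx1* and *Runx2* the pair lay 0.103 kb and 0.193 kb past the most upstream coding start, and in *Runx3* it lay 0.141 kb before it. Of 32851 RefSeq promoter sequences (GRCm38, from 250 bases before to 50 bases after a start), 7 held the pair on either strand, or 0.0213%. Of these windows 6 belong to members, and among them the 3 with the pair were the distal ones of the *Runx* genes. The other 4 windows with the pair were those of *Gm12236*, *Gm15462*, *Olfr24* and *Gm16225*. The last is a non-coding gene on the other strand that starts within the accessible region at the distal promoter of *Runx3*. A single Runt core (TGTGGT or TGCGGT, either strand) was in 22.4% of all these promoter sequences. A match is a stretch of letters and not a measured binding site.

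At these 3 regions the ratio ran from higher to lower in TCKO. The *Runx1* distal region with the pair (chr16:92825901-92826215) had 291 counts in WT and 256 in TCKO, or 420.9 after scaling. The *Runx2* distal region (chr17:44814157-44815373) had 1019 and 552, or 907.5 after scaling. The *Runx3* distal region (chr4:135119849-135120858) had 1621 and 346, or 568.9 after scaling. With total-count scaling *Runx1* was thus higher in TCKO, with a log2 ratio of 0.53 (0.29 to 0.77) that was -0.08 with the depth from the peak lists. *Runx2* was slightly lower at -0.17 (-0.32 to -0.02), and *Runx3* was lower at -1.51 (-1.68 to -1.34). A single scaling factor cancels in the differences between these regions. *Runx3* was below *Runx2* by a log2 difference of -1.34 (-1.57 to -1.12) and below *Runx1* by one of -2.04 (-2.34 to -1.75), and *Runx2* was below *Runx1* by one of -0.70 (-0.98 to -0.42). A loess of the ratio on the mean count, which is not a single factor, gave -1.34, -1.93 and -0.59. Among 17928 promoter regions of all genes with at least 100 WT counts, 97.2% had a lower ratio than the *Runx1* region. For the *Runx2* region this share was 34.8%, so its value was an ordinary one for a promoter, and for *Runx3* it was 0.0781%.

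**Figure D1:**
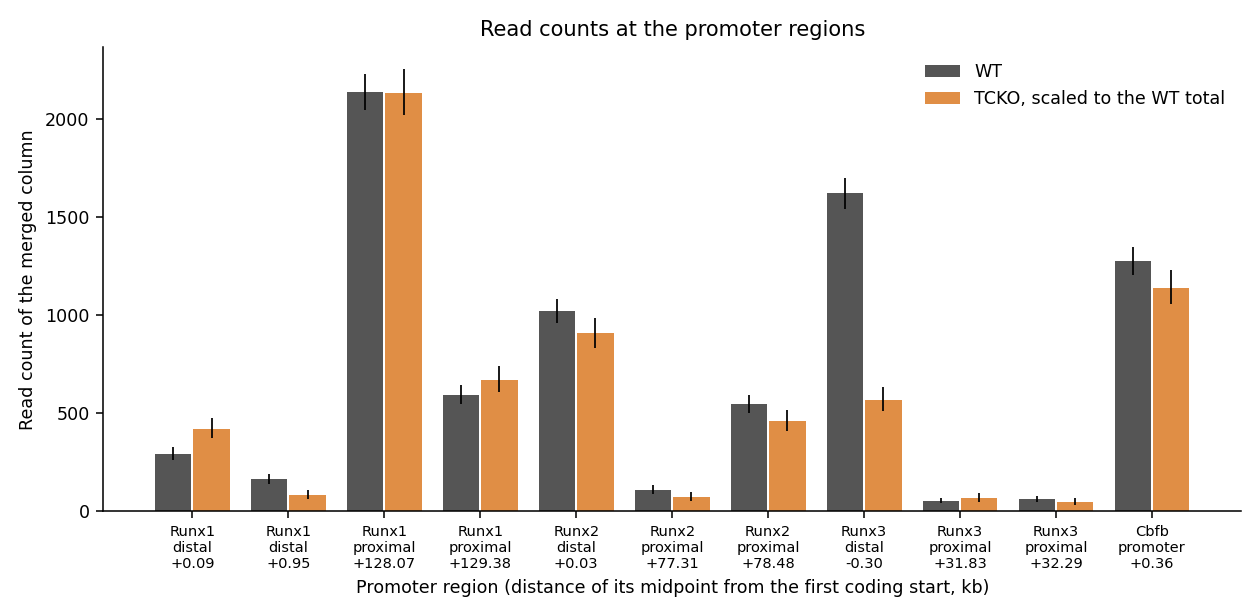
Read counts of the 11 promoter regions of the 4 genes, grey bars for the merged WT column and orange bars for TCKO after scaling to the WT total, with exact 95% Poisson intervals. Along the horizontal axis are gene, promoter and the distance in kb of the region's midpoint from the first coding start, and the *Runx3* distal region stands out with 1621 counts in WT against 568.9 scaled counts in TCKO.

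The whole table held 56898657 counts in WT and 34608167 in TCKO, and TCKO counts were multiplied by 1.644. The median region of the table then had a log2 ratio of 0.06. Regions within 1 kb of the starts of 5 osteoblast markers (*Col1a1*, *Col1a2*, *Alpl*, *Sp7*, *Ibsp*) were present for all 5 and had a summed log2 ratio of -0.08. Of 6 haematopoietic markers, only *Spi1* (107 and 49 counts) and *Csf1r* (90 and 110) had such a region, and *Ptprc*, *Tyrobp*, *Cd79a* and *Cd3e* had none. The 4 endothelial markers summed to 980 and 803 counts (log2 ratio 0.43). *Pecam1* (0.97), *Cdh5* (1.08) and *Kdr* (0.51) were above 0 and *Tek* (-0.35) below. Of the 4 chondrocyte markers *Col2a1* and *Acan* had regions, with a summed ratio of -0.07. The part of other cell types in the values below was not tested, and in such bulk samples a smaller number of cells with an open region cannot be told apart from less opening per cell. The loci of the targeted genes *Tet1*, *Tet2* and *Tet3* had log2 ratios of -0.17, -0.19 and -0.06, which measure accessibility and do not check the deletion.

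Over the 4 genes as a whole, as many regions were past 2-fold on the lower as on the higher side with total-count scaling, and more on the lower side with the other scalings. Of the 172 regions, 9 (5.23%) had a TCKO signal at least 2-fold below WT, beside 4.51% of all regions in the table, and 9 (5.23%) had one at least 2-fold above, beside 12.3% of all. These counts were 16 lower and 5 higher with TMM or DESeq2 size factors, 17 and 4 with the loess, and 43 and 2 with the depth from the peak lists. Of all regions, TMM put 5.52% lower and 10.9% higher, the loess 5.19% and 9.82%, and the peak-list depth 19.9% and 3.91%. The median ratio of the members was 0.01. Just inside the cutoff was a *Runx2* intronic region with 645 and 195 counts (-1.01), and just outside it one with 47 and 14 counts (-0.999). A summit in the WT peak list only was found at 54 regions, or 31.4%, beside 33.0% of all, and a summit in the TCKO list only at 11, or 6.40%, beside 10.2%. Counting intervals lay wholly below 0 at 47 regions (27.3%, beside 18.9% of all) and wholly above 0 at 45 (26.2%, beside 29.5%), and the members had more reads than the median region of the table (128 against 86 in WT), which narrows an interval.

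**Figure D2:**
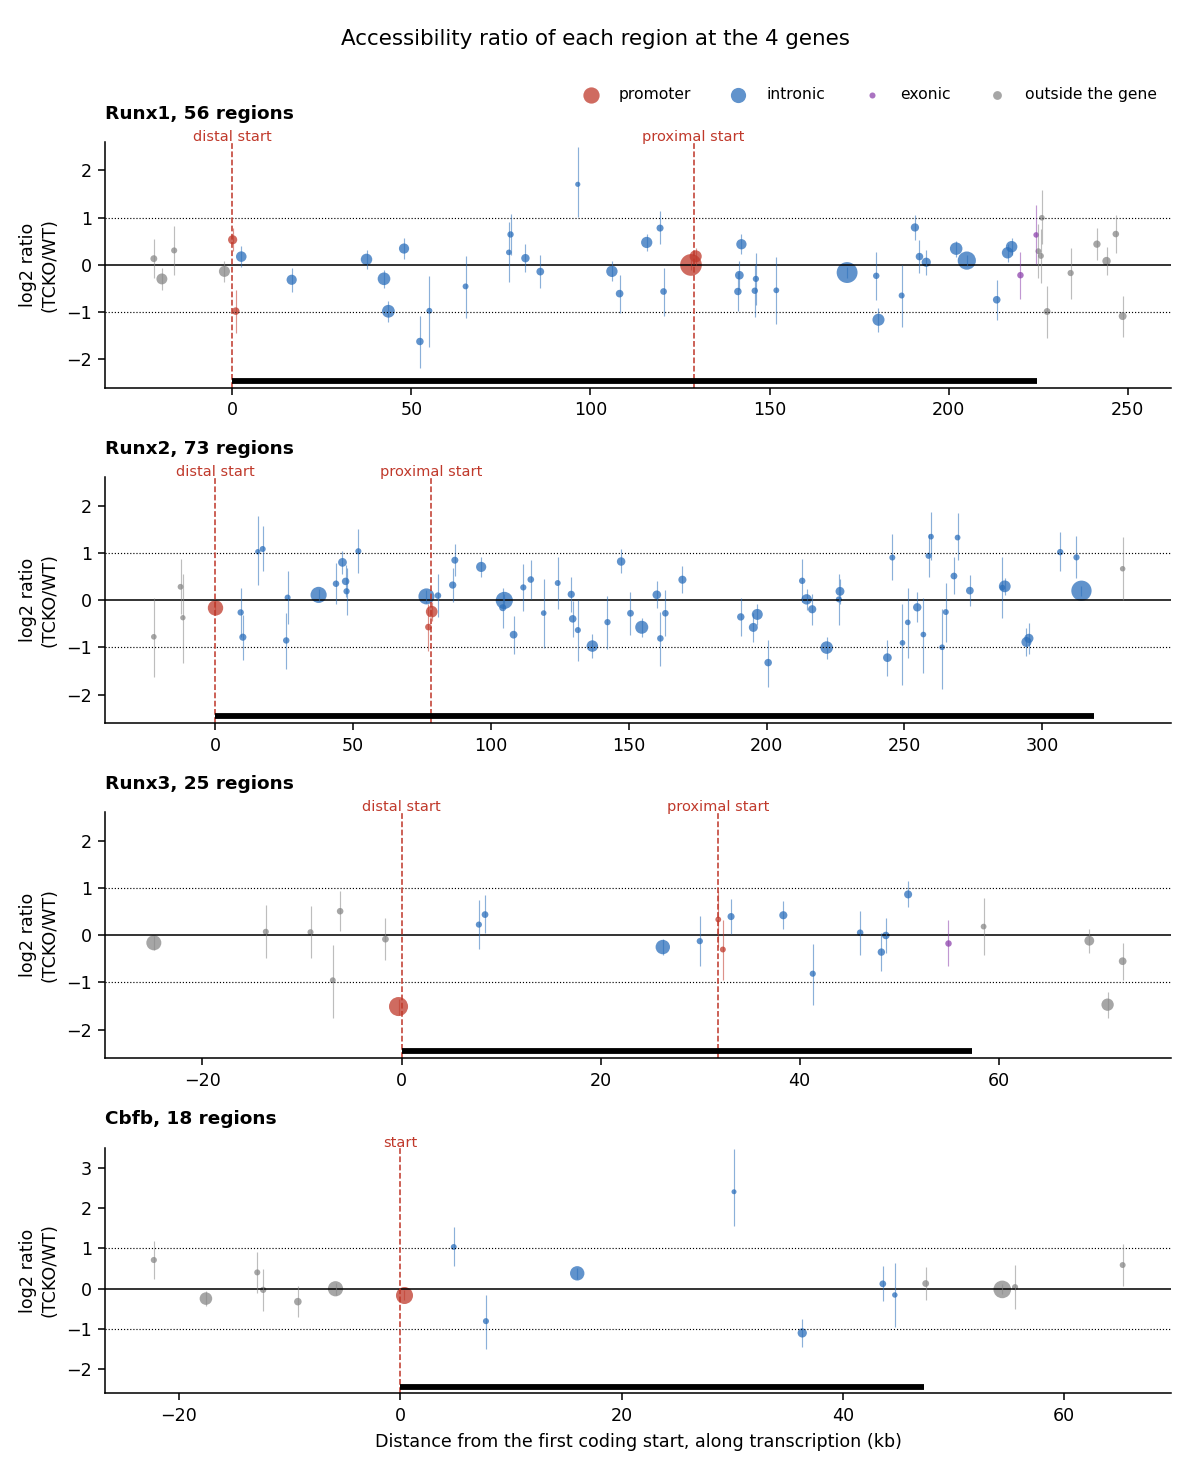
Log2 ratio (TCKO over WT) of each of the 172 regions against the distance of its midpoint from the gene's first coding start in kb, 1 panel per gene, with point area growing with WT counts, vertical lines for 95% counting intervals, dashed lines for coding starts, dotted lines at 2-fold and a black bar for the gene. The *Runx3* distal promoter and 1 region downstream of the gene lie below -1, while the other *Runx3* regions scatter around 0.

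*Runx2*, the osteoblast regulator, had a summed ratio near 0, with its introns above its promoters by a small amount, an order also seen over all genes. The 73 regions of the gene (ENSMUSG00000039153, chr17:44495987-44814797, minus strand) summed to 17807 counts in WT and 10838 in TCKO, which gave a log2 ratio of 0.001 (-0.03 to 0.04). Of these regions, 3 were at least 2-fold lower and 6 at least 2-fold higher. Its distal region lay inside *Supt3*, a coding gene on the other strand that overlaps 11 of the regions, so reads there cannot be assigned to one gene.

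The proximal promoter of *Runx2*, at 78.1 kb from the distal start, had its main region at chr17:44735938-44736703 with 544 and 279 counts, or 458.7 after scaling. Its log2 ratio was -0.25 (-0.45 to -0.04), and a smaller region beside it had 108 and 44 counts (-0.57, -1.08 to -0.08). Both overlap the antisense gene *Runx2os1*. Of the 17928 promoter regions of all genes with at least 100 WT counts, 20.8% had a lower ratio than the main region. The summed ratio of the distal promoter minus that of the proximal promoter was 0.13 (-0.12 to 0.37), so the 2 *Runx2* promoters did not differ beyond counting error. A region with 1119 and 718 counts, 1.91 kb upstream of the main proximal one, had a ratio of 0.08 (-0.06 to 0.21) and lay above it by a log2 difference of 0.32 (0.08 to 0.57). Where promoters were taken to reach 2 kb from a start, this region and one with 97 and 63 counts joined the proximal promoter, and the distal minus proximal value became -0.13.

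The introns of *Runx2* held 66 regions with 15975 and 9860 counts, and their summed ratio of 0.02 (-0.02 to 0.06) was above that of the promoters by 0.24 (0.11 to 0.36). Over all genes, promoter regions had a median ratio of -0.07 and all other regions one of 0.09, so this order is not particular to *Runx2*. The 13 regions of the first intron, between the 2 promoters, had 3374 and 2351 counts. Their ratio was 0.20 (0.12 to 0.27), 3 of them were at least 2-fold higher and 0 at least 2-fold lower, beside 12.3% and 4.51% of all regions. Those 3, named after their values were seen, were just past the cutoff. They had 27 and 34 counts (1.02), 64 and 83 (1.08), and 67 and 84 (1.03). With the loess these ratios were 0.85, 0.91 and 0.87, and with the depth from the peak lists 0.43, 0.48 and 0.43, each short of 2-fold. The 53 regions past the proximal promoter had 12601 and 7509 counts and a ratio of -0.03 (-0.07 to 0.01). The first intron was thus higher than the later introns by a log2 difference of 0.23 (0.14 to 0.31). Of its 3374 WT counts, 1134 came from a region at a start of *Supt3* (ratio 0.11). Another 1119 came from the region just upstream of the proximal promoter (0.08). Some 26 regions lay past the last coding transcript, where only a transcript with a premature stop extends the gene, and their ratio was 0.02 (-0.04 to 0.08).

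The *Runx2* region with most reads of the locus was among those 26, at chr17:44500192-44500979, 314.2 kb from the distal start. It had 1849 and 1289 counts, or 2346 per kb in WT, and a ratio of 0.20 (0.09 to 0.30). A second strong intronic region, at chr17:44709654-44710309, had 1299 and 786 counts and a ratio of -0.01 (-0.14 to 0.12). By contrast, the lowest ratios among regions with at least 100 counts were those of chr17:44614114-44614397, with 162 and 39 counts (-1.32, -1.84 to -0.84), and chr17:44570615-44571368, with 254 and 66 counts (-1.22, -1.62 to -0.84). The first of these had a summit in the WT list only. On the higher side were chr17:44508147-44508430, with 85 and 105 counts (1.01, 0.61 to 1.43), and chr17:44727788-44728069, with 126 and 138 counts (0.84, 0.50 to 1.20). The middle 120 bases of the second low region and of the strongest region are shown for the sequence under these different values, with CpG sites in capitals. The low one also holds a single Runt core.
Runx2 intronic region lower in TCKO, chr17:44570931-44571050, - strand: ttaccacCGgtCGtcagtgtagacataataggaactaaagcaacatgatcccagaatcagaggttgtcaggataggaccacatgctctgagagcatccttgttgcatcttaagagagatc
Runx2 intronic region with most reads, chr17:44500525-44500644, - strand: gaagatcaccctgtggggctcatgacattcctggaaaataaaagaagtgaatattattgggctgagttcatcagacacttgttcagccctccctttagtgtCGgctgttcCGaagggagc

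*Runx3* was the gene of the 4 whose summed accessibility was lower in TCKO, and that value rested mainly on 2 regions. The 25 regions of the gene (ENSMUSG00000070691, chr4:135120652-135177990, plus strand) summed to 6540 counts in WT and 3068 in TCKO, or 5044 after scaling, which gave a log2 ratio of -0.37 (-0.44 to -0.31). Of the 17660 protein-coding loci with at least 5 regions, 1.55% had a lower ratio, whereas the other 3 members stood near the middle (55.0% for *Runx1*, 56.9% for *Runx2* and 57% for *Cbfb*). Without the distal promoter region the ratio was -0.14 (-0.20 to -0.07), and without that region and the downstream region described next it was -0.02 (-0.09 to 0.05). These 2 sums were chosen after the values were seen.

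The distal promoter of *Runx3* was the most accessible promoter region of the family per length in WT, with 1605 counts per kb beside 1251 and 1522 at the 2 *Runx1* proximal regions, 837.3 at the *Runx2* distal one and 890.4 at *Cbfb*. It made up 24.8% of the *Runx3* counts in WT and 11.3% in TCKO. The fold enrichment over local background given by the peak caller was 11.1 in WT and 7.45 in TCKO, so a summit was still called. The non-coding gene *Gm16225* starts inside this region on the other strand, so reads there cannot be assigned to one gene. Of 17928 promoter regions with at least 100 WT counts over all genes, 14 had a lower ratio, or 0.0781%. Among the 6221 with at least 1000 WT counts, whose median was -0.15, 7 were at least 2-fold lower and the *Runx3* distal region had the lowest ratio. Its neighbour 1.31 kb upstream had 108 and 62 counts and a ratio of -0.08 (-0.53 to 0.37), a log2 difference of -1.43 (-1.91 to -0.95) from the promoter to that neighbour. The ratio of the promoter was thus lower than that of this neighbour, which lies within *Gm16225*. Whether the neighbour itself was lower in TCKO depends on the scaling. With the depth from the peak lists its ratio was -0.68, beside -2.12 at the promoter.

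**Figure D3:**
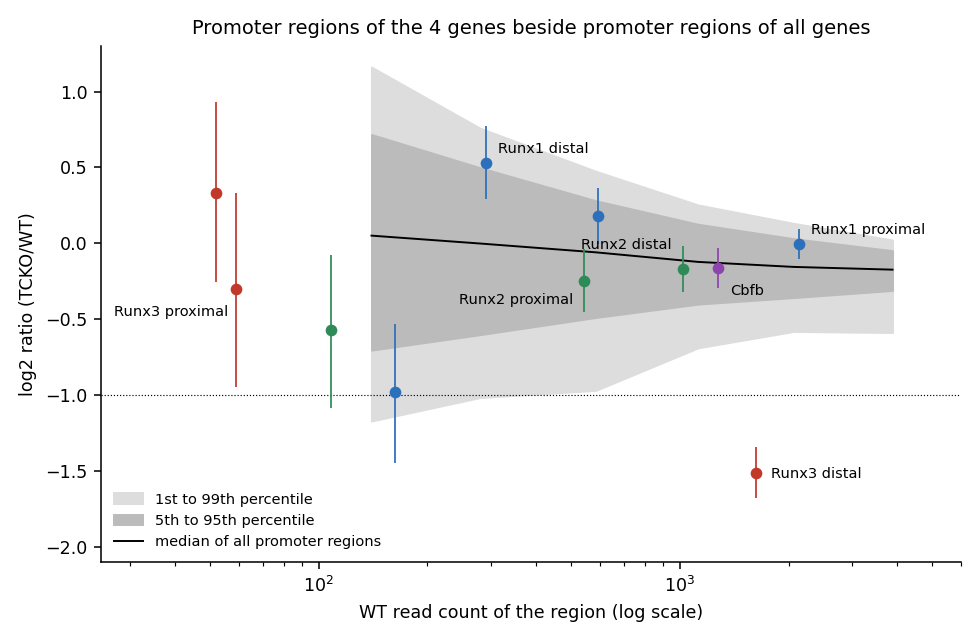
Log2 ratio (TCKO over WT) against WT read count on a log scale for the 11 promoter regions of the 4 genes, coloured by gene with 95% counting intervals, over the median and percentile bands of the promoter regions of all genes with at least 100 WT counts. The *Runx3* distal region at 1621 counts and -1.51 lies well below the 1st percentile band, and the other labelled regions lie within the bands where these are drawn.

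The proximal promoter of *Runx3*, 31.8 kb from the distal one, held 2 short regions with few counts. They had 52 and 40 counts (chr4:135152424-135152547, a summit in TCKO only) and 59 and 29 counts (chr4:135152881-135153009, a summit in WT only). Per length, they had 419.4 and 457.4 counts per kb in WT, and 530.3 and 369.6 in TCKO after scaling, beside 563.2 at the distal promoter in TCKO. Their summed ratio was 0.03 (-0.40 to 0.46). The distal promoter was below the proximal one by a log2 difference of -1.54 (-2.01 to -1.08), whereas this difference was 0.11 (-0.12 to 0.34) in *Runx1* and 0.13 in *Runx2*. For each *Runx3* promoter, 250 bases before the more upstream of the GENCODE and RefSeq starts are shown with CpG sites in capitals, because the 2 promoters differ in CpG content as well as in ratio. At the distal promoter that start is the RefSeq one, a few bases upstream of the GENCODE start from which distances were taken. There were 8 CpG sites in the distal stretch and 33 in the proximal one, and whether CpG content had a part in the ratio was not tested.
Runx3 before the distal start, chr4:135120395-135120644, + strand: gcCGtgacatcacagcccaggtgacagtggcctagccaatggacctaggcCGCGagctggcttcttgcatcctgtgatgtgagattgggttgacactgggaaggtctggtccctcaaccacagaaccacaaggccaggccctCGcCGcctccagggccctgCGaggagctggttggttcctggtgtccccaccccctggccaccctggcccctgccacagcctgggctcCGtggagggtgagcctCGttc
Runx3 before the proximal start, chr4:135152246-135152495, + strand: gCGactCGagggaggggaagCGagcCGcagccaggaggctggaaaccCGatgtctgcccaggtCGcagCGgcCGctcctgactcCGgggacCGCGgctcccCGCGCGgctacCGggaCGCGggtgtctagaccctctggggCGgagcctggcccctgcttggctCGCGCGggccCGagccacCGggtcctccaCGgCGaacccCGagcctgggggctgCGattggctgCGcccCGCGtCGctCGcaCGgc

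The second low region of *Runx3* lay 71.0 kb from the distal start, downstream of the gene, at chr4:135191215-135192004. It had 616 and 135 counts, or 222.0 after scaling, a ratio of -1.47 (-1.74 to -1.20), and a peak-caller enrichment of 6.19 in WT and 3.45 in TCKO. A smaller region 72.5 kb from the start had 176 and 73 counts (-0.55, -0.95 to -0.16). The middle 120 bases of the former held 0 CpG sites.
Runx3 downstream region lower in TCKO, chr4:135191549-135191668, + strand: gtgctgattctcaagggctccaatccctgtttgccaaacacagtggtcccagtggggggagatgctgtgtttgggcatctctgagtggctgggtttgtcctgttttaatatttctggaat

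The introns of *Runx3* had a summed ratio near 0. Their 11 regions had 2164 and 1389 counts, a ratio of 0.08 (-0.02 to 0.18), which was above the promoters by 1.42 (1.24 to 1.60). The distal region held 1621 of the 1732 promoter counts in WT, so this value repeats its fall. The proximal promoter, at 0.03, was close to the introns. The 4 regions between the promoters had 1143 and 637 counts and a ratio of -0.13 (-0.27 to 0.01), and the 7 regions after the proximal promoter had 1021 and 752 counts and a ratio of 0.28 (0.14 to 0.41). Summed, the earlier introns were thus lower than the later ones by a log2 difference of -0.40 (-0.60 to -0.21), the opposite order to *Runx2*. That sum leans on 1 region, with 882 of the 1143 WT counts between the promoters, and the median region was 0.05 in either part. Most reads lay in chr4:135146570-135147251, with 882 and 451 counts (-0.25, -0.41 to -0.09), followed by chr4:135158688-135159357 with 207 and 169 (0.42, 0.13 to 0.72). The highest ratio among regions with at least 100 counts was that of chr4:135171383-135171744, with 201 and 223 counts (0.86, 0.59 to 1.14), and next came chr4:135128865-135129227 with 109 and 90 (0.44, 0.04 to 0.84). No *Runx3* region was at least 2-fold higher.

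*Runx1* had a summed ratio near 0, but its distal promoter held 2 regions with different ratios. The 56 regions of the gene (ENSMUSG00000022952, chr16:92601466-92826149, minus strand) summed to 18459 counts in WT and 11173 in TCKO. Their log2 ratio was -0.01 (-0.04 to 0.03), with 3 regions at least 2-fold lower and 1 at least 2-fold higher. That last one, named after its values were seen, had 21 and 43 counts (1.70, 1.01 to 2.50). Beside the distal region with the Runt pair (0.53) lay chr16:92825095-92825305 with 163 and 50 counts and a ratio of -0.98 (-1.44 to -0.53). The 2 midpoints were 0.858 kb apart, and the ratios differed by 1.52 (1.003 to 2.04). They lay on opposite sides of 0 with total-count scaling, but with the depth from the peak lists both were below 0, at -0.08 and -1.58. The lower region had a summit in the WT list only. Summed, the distal promoter had a ratio of 0.15 (-0.06 to 0.36), a value that hides this split.

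The proximal promoter of *Runx1*, 128.8 kb from the distal start, had the most reads of any promoter of the 4 genes and a ratio near 0. Its main region (chr16:92697225-92698932) had 2137 and 1298 counts, or 2134 after scaling, a ratio of -0.002 (-0.10 to 0.10), and the other one (chr16:92696574-92696962) had 592 and 408 counts and a ratio of 0.18 (-0.00 to 0.36). The distal minus proximal difference of 0.11 (-0.12 to 0.34) did not exceed counting error.

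The introns of *Runx1* had 13010 and 7824 counts over 37 regions, a ratio of -0.02 (-0.06 to 0.02), and differed from the promoters by -0.07 (-0.16 to 0.02). The regions with most reads, chr16:92653845-92655117 (1968 and 1069 counts) and chr16:92620577-92621546 (1470 and 952 counts), had ratios of -0.16 (-0.27 to -0.06) and 0.09 (-0.03 to 0.21). The lowest ratios were those of chr16:92773613-92773927, with 159 and 31 counts (-1.62, -2.19 to -1.09), and chr16:92645319-92646122, with 586 and 159 counts (-1.16, -1.42 to -0.91). The highest among regions with at least 100 counts were 0.79 (0.53 to 1.06) at chr16:92635354-92635743, with 219 and 231 counts, and 0.78 (0.44 to 1.13) at chr16:92706534-92706895, with 129 and 135 counts. The middle of the second low region, with 6 CpG sites in its 120 bases, is shown because it had more reads than any other region of the gene at least 2-fold lower.
Runx1 intronic region lower in TCKO, chr16:92645660-92645779, - strand: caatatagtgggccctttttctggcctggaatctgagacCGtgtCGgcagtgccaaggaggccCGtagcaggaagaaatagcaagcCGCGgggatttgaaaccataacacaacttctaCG

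*Cbfb*, the gene of the non-DNA-binding partner, had a summed ratio near 0, with different ratios at its 2 strongest intronic regions. The gene (ENSMUSG00000031885, chr8:105170674-105217989, plus strand) has 1 cluster of coding starts, and its 18 regions summed to 6364 counts in WT and 3875 in TCKO, for a log2 ratio of 0.002 (-0.06 to 0.06). Of these counts, 1371 and 822 came from a downstream region at a start of another coding gene, *D230025D16Rik* (ratio -0.02). Without the regions of other coding genes the locus ratio was -0.016. The promoter region of *Cbfb* (chr8:105170321-105171752) had 1275 and 693 counts and a ratio of -0.16 (-0.30 to -0.03), and 35.8% of the 17928 promoter regions had a lower one. The strongest intronic region, chr8:105186345-105186979, had 879 and 695 counts, a ratio of 0.38 (0.24 to 0.52), and a peak-caller enrichment of 13.8 in both genotypes. The next, chr8:105206645-105207346, had 301 and 85 counts, a ratio of -1.10 (-1.45 to -0.76), and enrichments of 7.77 and 4.41. The 2 regions lay 20.3 kb apart and differed by 1.49 (1.11 to 1.86). With the depth from the peak lists both ratios were below 0, at -0.23 and -1.71.

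Their middle 120 bases are printed to set the different ratios beside the sequence, and they hold 0 and 1 CpG sites.
Cbfb intronic region with most reads, chr8:105186602-105186721, + strand: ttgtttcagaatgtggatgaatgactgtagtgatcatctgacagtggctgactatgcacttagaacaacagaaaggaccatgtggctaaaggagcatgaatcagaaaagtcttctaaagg
Cbfb intronic region lower in TCKO, chr8:105206935-105207054, + strand: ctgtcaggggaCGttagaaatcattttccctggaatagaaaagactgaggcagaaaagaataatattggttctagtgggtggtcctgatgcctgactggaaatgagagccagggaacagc

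The 7 intronic regions of *Cbfb* together had 1458 and 1004 counts, a ratio of 0.18 (0.06 to 0.30), above the promoter by 0.34 (0.17 to 0.52). After the trend of the ratio with GC content was removed this difference was 0.10. The intronic regions of *Cbfb* had a median GC content of 43.9%, and its promoter one of 70.6%. Over all genes, too, promoter regions had a lower median ratio (-0.07) than all other regions (0.09). Of the 18 regions, 1 was at least 2-fold lower and 2 were at least 2-fold higher, and those 2, named after their values were seen, had 59 and 74 counts (1.03) and 11 and 38 counts (2.40). Outside the gene, the lowest and highest ratios among regions with at least 100 counts were small, with 165 and 80 counts (-0.32, -0.71 to 0.06) upstream and 113 and 75 counts (0.12, -0.29 to 0.55) downstream.

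**Figure D4:**
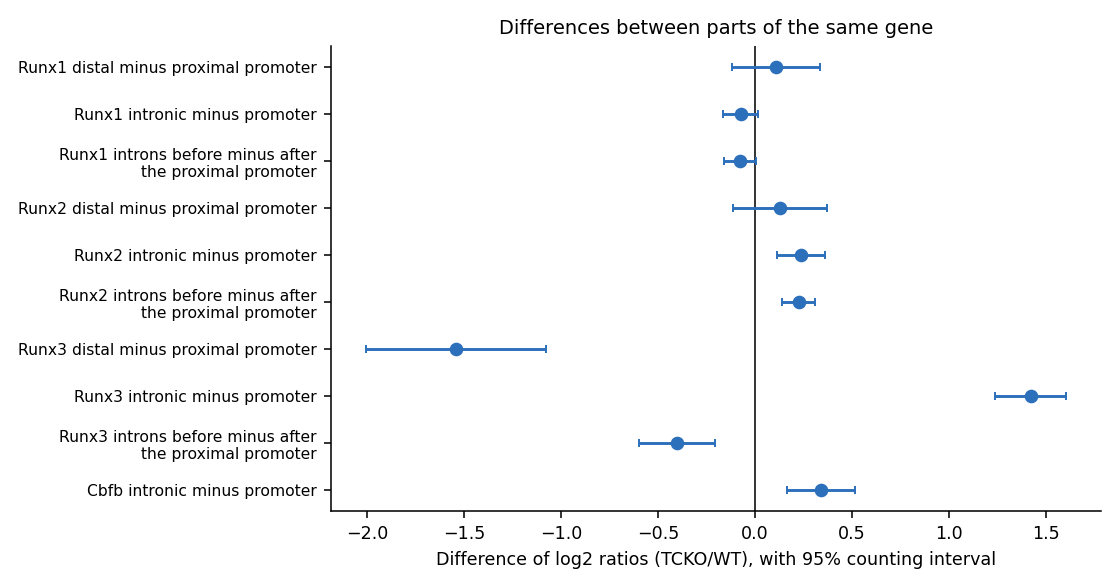
Differences of log2 ratios (TCKO over WT) between parts of the same gene, points for the value and bars for 95% counting intervals. The 2 *Runx3* differences that involve its promoters, -1.54 and 1.42, are the largest and both rest on its distal region. The distal minus proximal differences of *Runx1* and *Runx2* have intervals that hold 0.

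Across the 4 genes, CpG-dense regions had slightly lower ratios than the rest, as in the whole table. The 13 members with an observed over expected CpG ratio of at least 0.6 had a median log2 ratio of -0.16, beside -0.08 for all 18038 such regions, and 0 of them were past 2-fold in either direction, beside 2.10% lower and 2.30% higher among all such regions. The other 159 had a median of 0.05, beside 0.09 in the table. The *Runx3* distal region belonged to the latter, with an observed over expected ratio of 0.248 and a GC content of 58.0%.

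Runt cores within the members were about as common as elsewhere. A core (TGTGGT or TGCGGT, either strand) was in the central 200 bases of 46 members, or 26.7%, beside 24.5% of all regions. Members with a core had a median log2 ratio of -0.02 and those without one of 0.02, and in the whole table both medians were 0.06. The pooled medians hide different orders by gene. The 18 of 56 *Runx1* regions with a core had a median of 0.13 beside -0.14 without one, and the 8 of 18 *Cbfb* regions had 0.35 beside -0.01. At *Runx2* the 13 of 73 regions with a core had a median of -0.28 beside 0.06, and at *Runx3* the 7 of 25 had -0.16 beside 0.06. The *Runx3* distal region counts here as one without a core, because its Runt pair lies outside the central 200 bases.

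Genes that act with RUNX proteins had locus ratios near 0. None of the 32 coregulators, inhibitors and partners examined was at least 2-fold lower or higher over its locus, beside 0.131% of all protein-coding loci lower and 1.92% higher, and their ratios ran from -0.28 to 0.26. Intervals lay below 0 at 14 of the 32 (43.8%, beside 35.7% of all protein-coding loci) and above 0 at 4 (12.5%, beside 28.0%), and the median was -0.055 beside -0.020. Among the 17 corepressors and coactivators 6 lay below 0 and 1 above, the lowest being *Vgll4*, a cofactor of TEAD proteins, with 21125 and 10719 counts over 42 regions (-0.26, -0.29 to -0.23). Among the 8 inhibitors and degradation factors 5 lay below 0 and 2 above, from *Smurf2*, a ubiquitin ligase, at -0.28 (-0.34 to -0.21) to *Msx2*, a homeobox repressor, at 0.26 (0.20 to 0.33). Among the 7 factors that act with or on RUNX2, 3 lay below 0, the lowest being *Sp7*, which acts downstream of RUNX2 in the osteoblast, at -0.23 (-0.28 to -0.17), and 1 above, *Smad1*, which carries BMP signals, at 0.13 (0.05 to 0.21).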

How the data were processed

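ATAC-seq of primary osteoblasts had 2 labelled samples of WT and 2 of TCKO, grouped by the genotype in the labels. By the study's methods the authors aligned reads end to end with STAR 2.7.0e to GRCm38, kept unique alignments, merged replicates per genotype and called peaks with MACS2. The deposited files were raw read counts of each region in a table, 1 merged column per genotype, and per-genotype peak lists with the fold enrichment (a ratio to local background), -log10 p-value and -log10 q-value of each summit. Members, gene lists and comparisons were chosen with earlier results of these data known. One gene of the lists is not reported here. No column of sample values was left aside.

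Totals were 56898657 counts in WT and 34608167 in TCKO. With 1 merged column per genotype, no test was run, and precision is given by 95% Wilson intervals (differences of ratios: normal intervals on the log scale), which cover counting error only. TCKO counts were scaled by total count. Regions were assigned by midpoint: promoter within 1 kb of a coding start, otherwise exonic, intronic or outside the gene. Coding starts within 2 kb of each other formed 1 cluster. The distal cluster was the furthest upstream, and the proximal one began at least 5 kb downstream of it in an exon shared with distal transcripts. Named regions were, for each gene, the one with most WT counts at each promoter, the 2 intronic regions with most WT counts, and the 2 lowest and 2 highest ratios among regions that reached 100 counts in either genotype. Alternatives used TMM (edgeR 4.0.16), DESeq2 1.42.0 size factors, a depth solved from the peak lists' fold and p-value, a loess of ratio on mean count (span 0.3, statsmodels 0.14.6), 20 GC bins, other flanks, windows, filters and cutoffs. Sequences were read from the RefSeq GRCm38.p6 genome with pyfaidx 0.9.0.4, and scripts ran under Python 3.11.15 and were tested on simulated counts.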

Additional observations from a re-analysis of the deposited data

How the results depend on the processing

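No paired analysis was possible because the authors merged the replicates of each genotype into 1 column, and leaving out a replicate was not run for the same reason. Of 92 recomputed values, 56 stayed within the counting interval of the reported value, or within 1.5 times a reported count, and no log2 value whose interval excluded 0 changed sign. Of the 72 log2 values among them 15 changed sign, each where the reported interval held 0. The *Runx3* locus ratio was below 0 under each. TMM gave locus log2 ratios of -0.083 for *Runx1*, *Runx2* (-0.075) and *Cbfb* (-0.074) and -0.45 for *Runx3*, and DESeq2 size factors gave -0.072, -0.064, -0.064 and -0.44. Depth from the peak caller background gave -0.62, -0.61, -0.61 (*Cbfb*) and -0.98, and moved the median of all regions to -0.54, so that relative to it the values were -0.08, -0.07, -0.07 and -0.45. The loess gave 0.027 for the *Runx1* locus, 0.062 for *Cbfb* and -0.064 for the *Runx1* distal minus proximal value. A flank of 100 kb gave 0.06 for *Runx1* and -0.22 for *Runx3*. *Runx3* was -0.14 without its distal promoter region and -0.017 without its 2 lowest regions, both added after seeing the data. The 9 members at least 2-fold lower became 16 with TMM, 16 with DESeq2 size factors, 43 with the peak caller background, 17 with the loess, 15 with a 100 kb flank and 31 at 1.5-fold. The 9 at least 2-fold higher became 5, 5, 2, 4, 22 and 25, and 4 with 10 counts added. The 100 kb flank took in 284 regions, so its 15 and 22 were 5.28% and 7.75% of a larger set. All regions past 1.5-fold are not given here. Of all regions in the table, TMM put 5.52% at least 2-fold lower and 10.9% at least 2-fold higher, the loess 5.19% and 9.82%, and the depth from the peak lists 19.9% and 3.91%. Of the members, TMM put 9.30% and 2.91% there and the loess 9.88% and 2.33%. With promoters within 500 bp the *Runx1* intronic minus promoter value was -0.55, since 3 of the 4 promoter regions, the lower distal one and both proximal ones, dropped out, and no distal minus proximal value was left for *Runx1*. With promoters within 2 kb, *Runx2* gave -0.13 for distal minus proximal and 0.10 for intronic minus promoter, and *Runx3* gave 1.06 for the latter. Removal of the GC trend took *Cbfb* intronic minus promoter to 0.10 and *Runx2* distal minus proximal to -0.014. Depth limits the weakest promoter most: a *Runx3* proximal region with 59 and 29 counts had an interval from -0.94 to 0.33, so a difference within it was not detectable.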

Other observations

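Over the 4 genes pooled, regions with an AP-1 sequence had a higher median ratio than those without it, though not at *Runx3*. AP-1 factors are dimers of FOS and JUN proteins, and the sequence TGANTCA (either strand) was in the central 200 bases of 40 of the 172 regions, or 23.3%, beside 23.6% of all regions. Members with it had a median log2 ratio of 0.34 and members without it one of -0.16, beside 0.42 and -0.02 in the whole table. At *Runx2* the 22 regions with it had a median of 0.38 and the others one of -0.25, and at *Runx1* the 12 with it had a median of 0.28 and the others one of -0.15. At *Runx3* only 3 regions held it, with a median of -0.12 beside -0.04 for the others. The sequence GGAATG, bound by TEAD factors, was in 22 members (12.8%, beside 16.3% of all), with medians of -0.01 with it and 0.01 without it. These are descriptions over regions of the same 2 merged columns, with no test.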
